A study of Homo sapiens with 6 samples.

Results

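Mitochondrial carriers of the solute carrier family 25 (SLC25) were described in HT-1080 cells, an established human fibrosarcoma line, after 4 h with an inhibitor of IRAK4. The members were all rows of the count tables whose symbol begins with SLC25A and a digit, which gave 52 of 20683 rows: 48 carrier genes, 2 antisense rows and 2 pseudogene rows. Of these, 36 carriers and 1 antisense row had enough counts to be tested, among 11391 tested genes. The inhibitor group was 3 libraries of cells given the compound coded SLV-8472-01, with a labelled dose of 5 mM, and the control group was 3 libraries of cells given 0.1% DMSO, the solvent, also for 4 h. The labelled dose may be that of a stock or carry the wrong unit, since no dilution is stated. IRAK4 is a kinase that acts downstream of Toll-like and interleukin-1 receptors. The series title asks which genes are regulated after this treatment, and the series design describes the libraries of a group as biological replicates.

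SLC25 proteins are nuclear-encoded and mostly sit in the inner mitochondrial membrane, where each exchanges or moves a narrow set of metabolites, nucleotides, cofactors or ions between the cytosol and the matrix. They are imported through the TOM complex, guided across the intermembrane space by small TIM chaperones and inserted by the TIM22 complex. Through them the cell exports ATP, supplies the matrix with phosphate, NAD, iron and amino acids, and shuttles reducing equivalents.

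Libraries came from a targeted panel (Ion AmpliSeq Transcriptome), in which multiplex PCR copies 1 stretch of the cDNA of each gene, so levels were compared between groups and not between genes. Counts per 1000000 counts (CPM) were scaled with the TMM factors of edgeR. Library totals ran from 7644478 to 15336351 counts, and the 3 inhibitor libraries (up to 11427779) were all shallower than the 3 DMSO libraries (from 12003104), at an exact two-sided permutation p of 0.1, the smallest that 3 against 3 allows. The first principal component over all tested genes (52.5% of variance) separated the groups, and on the second (16.8%) inhibitor replicate 3 stood apart at -23.6. Without it, 2 carriers rose and 3 fell, against 3 and 5 with it. Vimentin (VIM), a mesenchymal marker, averaged 6019 CPM with the inhibitor and 5648 CPM with DMSO. Of 10 mesenchymal markers 9 were tested and 4 rose (44.4%, against 9.92% of all tested genes). The 10 together summed to 10447 to 12781 CPM with the inhibitor and to 9695 to 10505 CPM with DMSO. VIM, the highest of them and the largest part of this sum, was not called as changed. The 7 epithelial markers summed to at most 2.61 CPM in any library, with CDH1 and GRHL2 at 0. The 7 leukocyte markers summed to at most 1.26 CPM, with PTPRC, CD3E and MS4A1 among those at 0. The part of the mesenchymal marker change and of the depth gap in the carrier results was not tested, apart from the fit on counts thinned to equal depth. In such bulk libraries, fewer cells of a type and less RNA per cell cannot be told apart.

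The carriers changed in both directions and by small amounts. SLC25A6, SLC25A35 and SLC25A37 rose, and SLC25A12, SLC25A24, SLC25A29 and SLC25A51 were among those that fell (edgeR quasi-likelihood test, Benjamini-Hochberg adjusted p under 0.05 over all tested genes). Of the 36 tested carriers, 8 (22.2%) were called, against 20.2% of all tested genes. The 3 that rose stood beside a background of 9.92% of tested genes, and the 5 that fell beside 10.3%. The share called in the family was thus close to that of all genes. At an unadjusted p under 0.05, 3 of the 36 carriers were higher and 9 lower, where 16.3% of all tested genes were higher and 17.0% lower. The median log2 fold change was -0.09 over the tested carriers, with 14 above and 22 below 0, and 0.00 over all tested genes. In 14 carriers (38.9%) the CPM of the groups did not overlap, against 36.3% of all tested genes. The carriers together took 0.297% ± 0.0150 of the counts with the inhibitor and 0.305% ± 0.000596 with DMSO (SD, n = 3), an exact two-sided permutation p of 0.8. The lowest share, 0.280%, was that of inhibitor replicate 3, and the other 5 libraries lay between 0.305% and 0.306%. Without SLC25A5, the carrier with the most counts, the share was 0.201% ± 0.00928 with the inhibitor and 0.207% ± 0.00438 with DMSO. The exact two-sided permutation p of that share was 0.4.

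**Figure D1:**
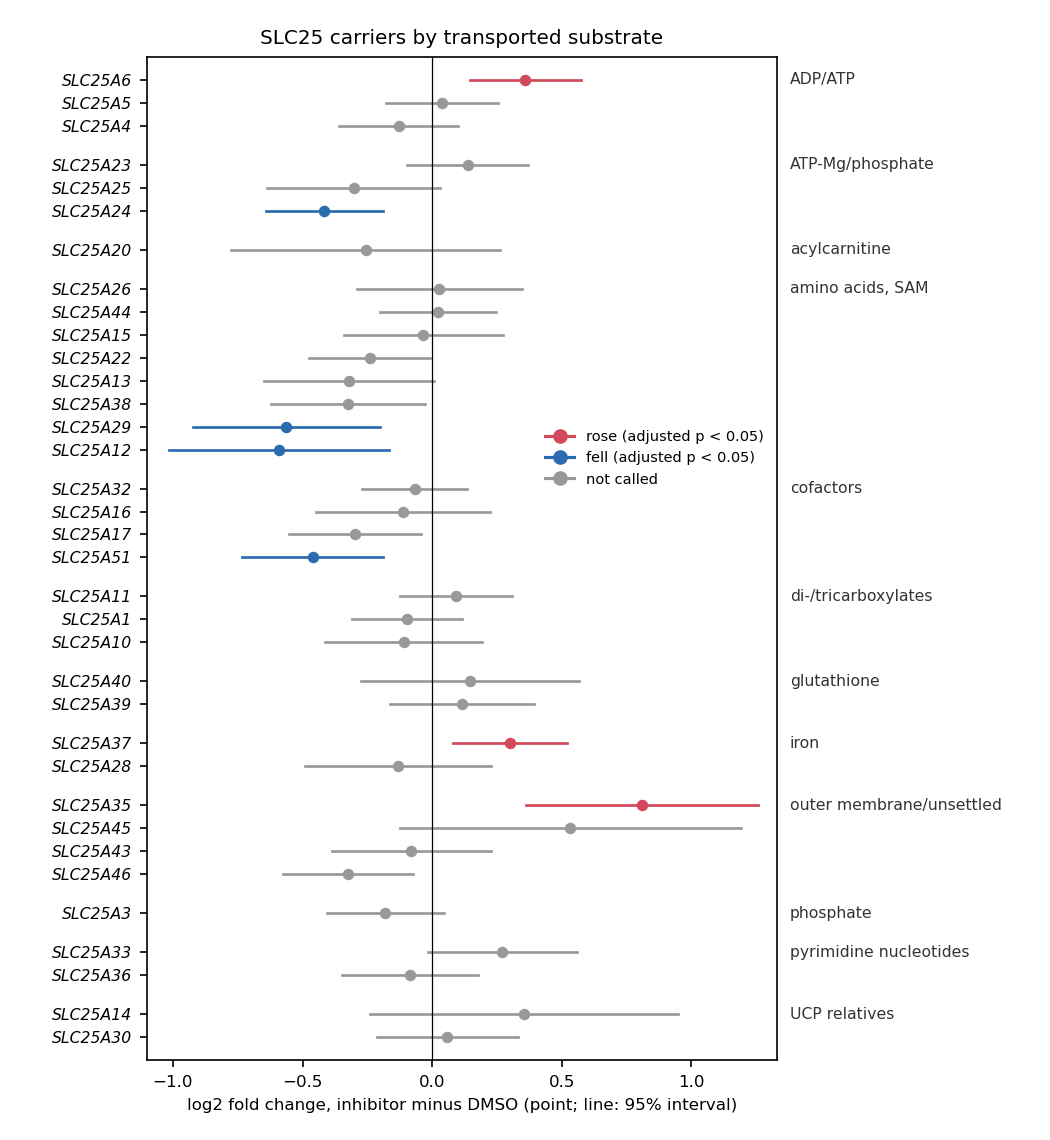
Log2 fold change of the SLC25 carriers shown (x axis, inhibitor minus DMSO; point, edgeR estimate; line, 95% interval), grouped by the substrate class named on the right. The 3 called carriers right of 0 fall in 3 different classes, and those left of 0 in the classes for ATP-Mg, cofactors and amino acids.

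The ADP/ATP carriers, which exchange matrix ATP for cytosolic ADP, did not move as a class. SLC25A6 (ANT3) was at 664, 544 and 540 CPM in inhibitor replicates 1 to 3 and at 464, 455 and 443 CPM in DMSO replicates 1 to 3. All inhibitor libraries lay above all DMSO libraries, with inhibitor replicate 1 well above the other two. SLC25A6 rose by 0.36 ± 0.10 (log2, SE; n = 3 per group), or 1.28-fold, at an adjusted p of 0.0166. SLC25A6 was no longer called without inhibitor replicate 1 (adjusted p = 0.0945), DMSO replicate 2 (0.0667) or DMSO replicate 3 (0.0635). SLC25A5 (ANT2), the form typical of dividing cells, gave 0.04 ± 0.10 (95% interval -0.18 to 0.25, adjusted p = 0.833). SLC25A4 (ANT1), the form typical of heart and muscle, gave -0.13 ± 0.11 (-0.36 to 0.10, adjusted p = 0.438). In both genes the groups overlapped. SLC25A31, the germ cell form, had no count in any library.

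Among the calcium-sensing carriers that exchange ATP-Mg for phosphate and so set the adenine nucleotide pool of the matrix, SLC25A24 fell. It was at 42.9, 39.8 and 37.0 CPM with the inhibitor and at 52.2, 52.6 and 55.3 CPM with DMSO. The groups were well apart, and the spread within each was small. The change was -0.42 ± 0.11 at an adjusted p of 0.00945, and of all alternatives run it lost its call only in the test against a fold of 1.2 (adjusted p = 0.188). Its relatives were not called. SLC25A25 gave -0.30 ± 0.16 (-0.64 to 0.03, adjusted p = 0.195) and SLC25A23 gave 0.14 ± 0.11 (-0.10 to 0.37, adjusted p = 0.417). The groups did not overlap in either, SLC25A25 being lower and SLC25A23 higher with the inhibitor. SLC25A41, the remaining relative, had no counts. The phosphate and copper carrier SLC25A3 was at 215, 252 and 253 CPM with the inhibitor and at 284, 295 and 237 CPM with DMSO. DMSO replicate 3 lay within the range of the inhibitor libraries, and the difference of -0.18 ± 0.11 was not called (-0.41 to 0.04, adjusted p = 0.257).

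Of 5 tested carriers of cofactors, 2 fell, none rose and all 5 had estimates below 0, with a median of -0.30. Of all 11391 tested genes, 10.3% fell, 9.92% rose and 5652 had estimates below 0. At an unadjusted p under 0.05, 3 of them were lower and 0 higher, where 17.0% of all tested genes were lower and 16.3% higher, and no cofactor carrier was called as higher by edgeR or by DESeq2. SLC25A51, which brings NAD into the matrix, was at 20.8, 20.3 and 18.2 CPM with the inhibitor and at 23.7, 30.6 and 27.8 CPM with DMSO. The groups did not overlap, and DMSO replicate 1 lay nearest to the inhibitor libraries. SLC25A51 fell by 0.46 ± 0.13 on the log2 scale (adjusted p = 0.0149), a call that was lost without DMSO replicate 2 (0.0998). SLC25A17, a carrier of peroxisomes that moves coenzyme A, FAD and NAD, gave -0.30 ± 0.12 (-0.55 to -0.04, adjusted p = 0.0916) without overlap of the groups. SLC25A16 gave -0.11 ± 0.16 (adjusted p = 0.675). SLC25A32, linked to folate and FAD transport, lay between 183 and 208 CPM in all 6 libraries and gave -0.07 ± 0.10 (-0.27 to 0.14, adjusted p = 0.678).

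**Figure D2:**
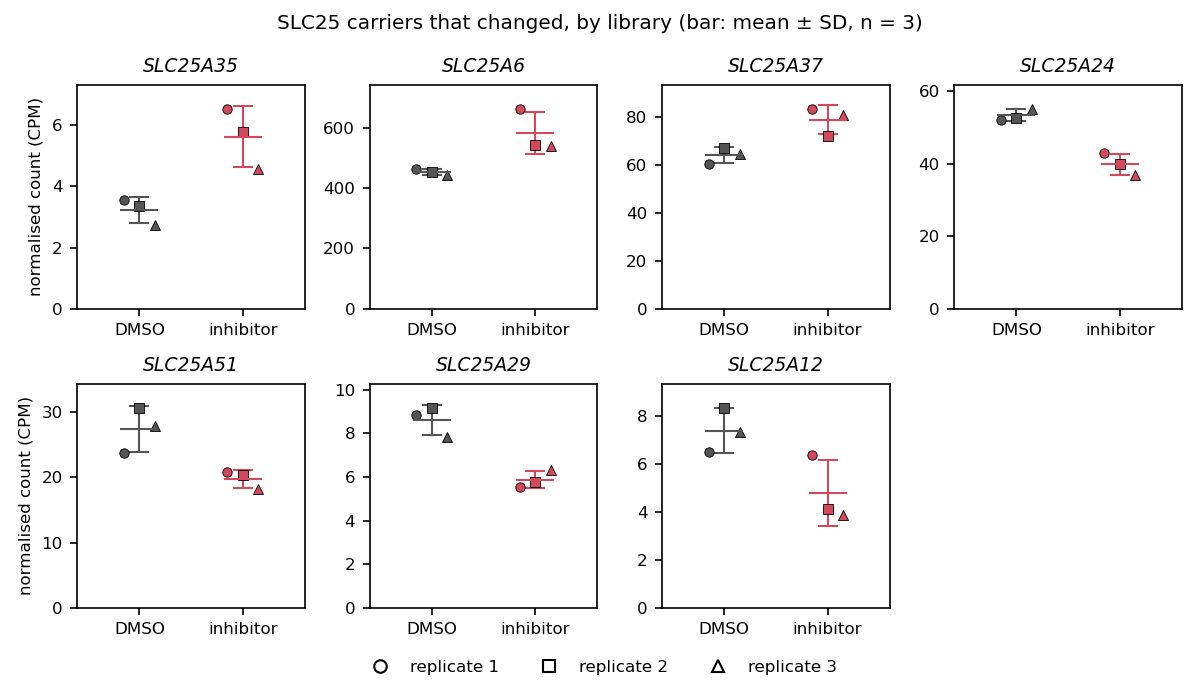
CPM of called SLC25 carriers in each library (y axis, from 0; one panel a gene), by group, with bars at the mean ± SD of 3 libraries and the point shape for the replicate. Inhibitor and DMSO libraries do not overlap in any panel, and in SLC25A12 inhibitor replicate 1 sits at 6.37 CPM under a lowest DMSO value of 6.49 CPM.

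Of 8 tested carriers of amino acids and S-adenosylmethionine, 2 fell and none rose (10.3% and 9.92% of all tested genes), and the median was -0.28. At an unadjusted p under 0.05, 4 were lower and 0 higher, against the same 17.0% and 16.3% of all tested genes. SLC25A29, a carrier of lysine, arginine and other basic amino acids, was at 5.56, 5.77 and 6.30 CPM with the inhibitor and at 8.85, 9.17 and 7.81 CPM with DMSO. The inhibitor libraries were close together and all below the DMSO libraries. It fell by 0.56 ± 0.17 on the log2 scale (adjusted p = 0.0246). The call was lost under DESeq2 (0.0517), after thinning to equal depth (0.18) and without inhibitor replicate 1 (0.0851), inhibitor replicate 2 (0.0682), DMSO replicate 1 (0.0643) or DMSO replicate 2 (0.0952). SLC25A12 (aralar), the aspartate/glutamate carrier of the malate-aspartate shuttle, was at 6.37, 4.13 and 3.89 CPM with the inhibitor and at 6.49, 8.33 and 7.31 CPM with DMSO. Inhibitor replicate 1 lay almost at the level of DMSO replicate 1. SLC25A12 fell by 0.59 ± 0.21 on the log2 scale (adjusted p = 0.0448). The call was lost under the replicate block (0.0582), DESeq2 (0.0757), voom (0.0518), thinning (0.0599) and without inhibitor replicate 2 (0.165), inhibitor replicate 3 (0.131), DMSO replicate 2 (0.178) or DMSO replicate 3 (0.0864).

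The other carriers of the class were not called. SLC25A13 (citrin), the second aspartate/glutamate carrier, gave -0.32 ± 0.16 (-0.65 to 0.01, adjusted p = 0.163). SLC25A38, which supplies glycine for haem synthesis, gave -0.32 ± 0.14 (-0.62 to -0.03, adjusted p = 0.116), and the glutamate carrier SLC25A22 gave -0.24 ± 0.11 (-0.48 to -0.01, adjusted p = 0.137). The inhibitor libraries of SLC25A22 were all below those of DMSO, whereas those of SLC25A13 and SLC25A38 overlapped with DMSO. The estimates of the ornithine carrier SLC25A15, the S-adenosylmethionine carrier SLC25A26 and SLC25A44, which takes up branched-chain amino acids, lay between -0.03 and 0.03.

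No carrier of di- and tricarboxylates, acylcarnitine, glutathione or pyrimidine nucleotides was called by edgeR or DESeq2, and none of these 8 genes had an unadjusted p under 0.05. The citrate carrier SLC25A1, which exports the acetyl units of fatty acid synthesis, was at 77.1, 82.8 and 79.3 CPM with the inhibitor and at 80.5, 89.8 and 85.5 CPM with DMSO, a difference of -0.10 ± 0.10 (-0.31 to 0.12, adjusted p = 0.544). The carnitine-acylcarnitine carrier SLC25A20 was low and gave -0.26 ± 0.25 (-0.78 to 0.26, adjusted p = 0.507). The intervals of these 2 genes therefore bound the change of SLC25A1 more tightly than that of SLC25A20. The glutathione carrier SLC25A39 gave 0.12 ± 0.13 (-0.16 to 0.39, adjusted p = 0.585). SLC25A33, which carries pyrimidine nucleotides, averaged 18.4 ± 0.707 CPM with the inhibitor and 15.3 ± 1.97 CPM with DMSO (SD, n = 3). Its groups did not overlap, by a narrow gap between 17.6 CPM in inhibitor replicate 2 and 17.5 CPM in DMSO replicate 3, and the difference of 0.27 ± 0.14 was not called (-0.01 to 0.56, adjusted p = 0.174). Of the 2 tested relatives of the uncoupling proteins, SLC25A14 had the smaller p and gave 0.35 ± 0.29 (-0.24 to 0.95, adjusted p = 0.414).

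Of the iron carriers, SLC25A37 (mitoferrin 1), which imports iron for haem and iron-sulfur clusters, was at 83.7, 72.3 and 81.1 CPM with the inhibitor and at 60.7, 67.2 and 64.6 CPM with DMSO. The groups did not overlap, with inhibitor replicate 2 the nearest to DMSO. SLC25A37 rose by 0.30 ± 0.11 (adjusted p = 0.0471), just inside the threshold. The call was lost without any one of 5 libraries (adjusted p = 0.142 without inhibitor replicate 1, 0.0863 without inhibitor replicate 3, and 0.153, 0.0916 and 0.0985 without DMSO replicates 1, 2 and 3), with library totals as scaling (0.137), without the count filter (0.0744) and under the replicate block (0.0638). SLC25A28 (mitoferrin 2), the form of most tissues, gave -0.13 ± 0.17 (-0.49 to 0.23, adjusted p = 0.641).

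Among 4 tested members of the outer membrane or without a settled substrate, SLC25A35 rose. It was at 6.55, 5.77 and 4.56 CPM with the inhibitor and at 3.57, 3.36 and 2.74 CPM with DMSO. All inhibitor libraries were above all DMSO libraries, and replicate 3 was the lowest in both groups. The change of 0.81 ± 0.22 (95% interval 0.36 to 1.26, adjusted p = 0.0106), or 1.75-fold, was the largest estimate among the tested carriers and the 1 call of the family that passed the test against a fold of 1.2 (adjusted p = 0.0465). Its call was lost without inhibitor replicate 1 (0.0743) and after thinning (0.0582). SLC25A46, an outer membrane protein linked to mitochondrial shape and lipid transfer, was at 24.8, 26.6 and 27.9 CPM with the inhibitor and at 34.4, 35.7 and 28.9 CPM with DMSO. The groups did not overlap, and the difference of -0.33 ± 0.12 was not called (-0.58 to -0.07, adjusted p = 0.0609). SLC25A45 gave 0.53 ± 0.32 (-0.12 to 1.19, adjusted p = 0.25) on at most 35 counts a library.

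The other 12 carriers were not tested. SLC25A2, SLC25A31, SLC25A41 and SLC25A47 had no count in any library, for which the floor of 3 counts allows up to 0.191 to 0.402 CPM, counting error only. SLC25A18, SLC25A21, SLC25A27, SLC25A34, SLC25A42, SLC25A48, SLC25A52 and SLC25A53 had at most 23 counts in a library and at most 0.715 CPM on average. That highest count belonged to the oxodicarboxylate carrier SLC25A21, which had 3 to 7 counts in the inhibitor libraries and 8, 23 and 10 in DMSO replicates 1 to 3. Its antisense row SLC25A21-AS1 was tested and gave 0.26 ± 0.23 (adjusted p = 0.463). SLC25A25-AS1 had at most 11 counts a library, and the pseudogene rows SLC25A3P1 and SLC25A51P1 had at most 1.

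Ratios within a library compare close relatives without regard to scaling between libraries. Of 13 pairs, 7 did not overlap between groups, each at an exact two-sided permutation p of 0.1, the smallest possible, and at 0.186 adjusted over the pairs, so no pair passed. Single tested genes did not overlap in 36.3%, and no share over pairs of other genes was computed. Pairs among SLC25A4, SLC25A5 and SLC25A6, and among SLC25A23, SLC25A24 and SLC25A25, share genes. The pairs are therefore not separate results, and some restate the calls of SLC25A6 and SLC25A24. The log2 ratio of SLC25A23 to SLC25A24 was 0.03, -0.06 and 0.02 with the inhibitor and -0.50, -0.50 and -0.67 with DMSO, a difference of 0.55. SLC25A4 relative to SLC25A6 was -2.78, -2.21 and -2.43 with the inhibitor and -2.01, -2.13 and -1.83 with DMSO, a difference of -0.48. The ratio of SLC25A28 to SLC25A37 (difference -0.41) and that of SLC25A12 to SLC25A13 (-0.28) overlapped between groups (exact p = 0.2, 0.26 adjusted). SLC25A39 relative to SLC25A40 differed by -0.01 (exact p = 1).

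**Figure D3:**
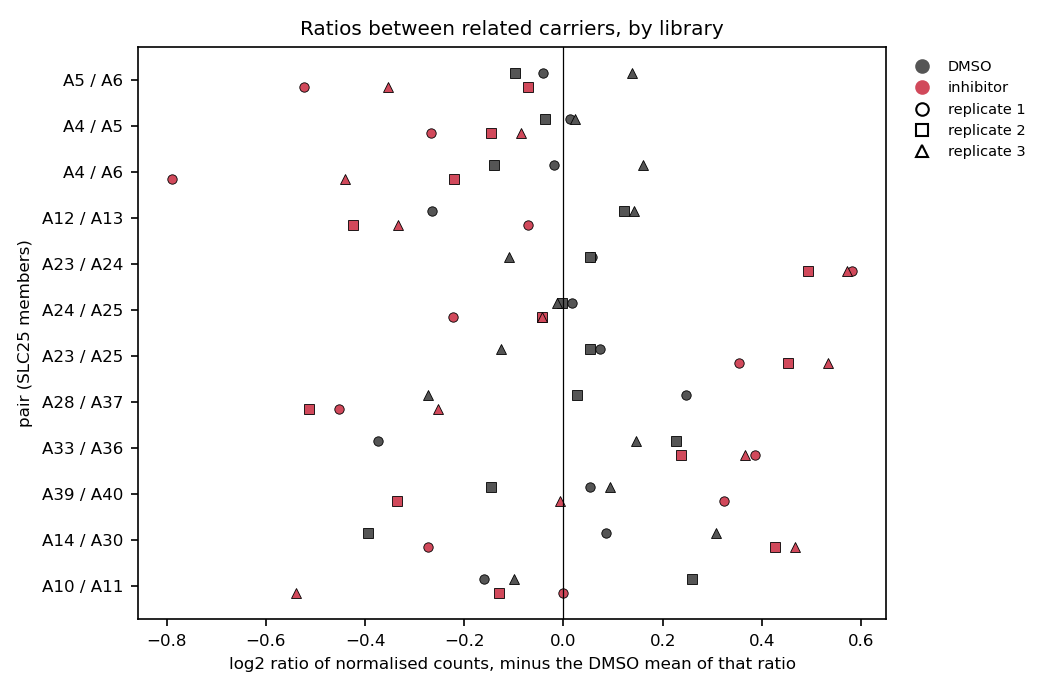
Log2 ratio of CPM (plus 0.5 CPM) between related carriers in each library, less the DMSO mean of that ratio (x axis), by pair (y axis; point shape, replicate; colour, group). For SLC25A23 over SLC25A24 the 3 inhibitor libraries lie to the right of all DMSO libraries, for SLC25A4 over SLC25A6 to the left, and for SLC25A39 over SLC25A40 the groups overlap.

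Of 13 tested genes that import and insert carriers, 3 fell (23.1% of the list called, against 20.2% of all tested genes; range 0 to 4 over the alternatives), with a median of -0.15. At an unadjusted p under 0.05, 4 were lower and 1 higher (17.0% and 16.3% of all tested genes), and none rose by edgeR's test. TIMM22, the channel that inserts carriers into the inner membrane, averaged 15.6 CPM with the inhibitor and 21.7 CPM with DMSO, a change of -0.48 ± 0.13 (adjusted p = 0.0116). TOMM40, the pore of the outer membrane, changed by -0.31 ± 0.10 (adjusted p = 0.035). The small chaperone TIMM8B changed by -0.31 ± 0.11 (adjusted p = 0.0497). Of 16 tested other mitochondrial transporters, 2 fell (12.5%; range 0 to 3), with a median of -0.08. These were SFXN1, a serine carrier (-0.44 ± 0.11, adjusted p = 0.00536), and its relative SFXN2 (-0.42 ± 0.13, adjusted p = 0.0209). At an unadjusted p under 0.05, 3 of the 16 were lower and 0 higher, beside the same 17.0% and 16.3% of all tested genes. None of the 16 rose under any alternative. The share called in the import list was near the 20.2% of all tested genes. All 3 calls of that list were falls (23.1%), where 10.3% of all tested genes fell. In the other transporters the share lower was near that of all tested genes, and none was higher.

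Of 29 tested enzymes that make or use the carried metabolites, 7 rose (range 4 to 8) and 1 fell (27.6% called, against 20.2% of all tested genes), with a median of 0.05. MTHFD2, of mitochondrial folate metabolism, was at 858, 836 and 913 CPM with the inhibitor and at 364, 409 and 369 CPM with DMSO. Its groups were far apart, and the change of 1.19 ± 0.10 (adjusted p = 1.58e-08) was 2.28-fold. MTHFD2L, a related folate enzyme, changed by 1.07 ± 0.33 (adjusted p = 0.0255), on at most 23 counts a library. GOT1, the cytosolic aminotransferase of the malate-aspartate shuttle, rose by 0.60 ± 0.11 (adjusted p = 7.79e-04). Looked up after the values were seen, GOT2 (-0.08 ± 0.10), MDH1 (0.05 ± 0.11) and MDH2 (0.15 ± 0.10), enzymes of the same shuttle, were not called. Of the shuttle's carriers, SLC25A12 fell, a call lost under 9 of 14 alternatives. SLC25A13 and SLC25A11 (0.09 ± 0.10) were not called. PYCR1, which makes proline in mitochondria, rose by 0.55 ± 0.12 (adjusted p = 0.00249). Outside the rule for named genes and chosen after their values were seen, SHMT2 (0.51 ± 0.10), ASNS (0.50 ± 0.11) and CPT2 (0.48 ± 0.13) rose. SLC25A32, whose folate transport supplies MTHFD2 and SHMT2, was not among the called carriers.

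Of 15 tested genes of mitochondrial iron, iron-sulfur clusters and haem, 1 rose (range 0 to 1) and 2 fell (range 0 to 3), or 3 of 15 called, near the share of all tested genes (20.2%). FDXR, the ferredoxin reductase, rose by 0.39 ± 0.12 (adjusted p = 0.0199). The haem enzyme CPOX fell by 0.43 ± 0.15 (adjusted p = 0.0447), and GLRX5, which handles iron-sulfur clusters, fell by 0.31 ± 0.10 (adjusted p = 0.0308), both on the log2 scale. Of 13 tested regulators of mitochondrial biogenesis, 1 rose (1 under every alternative) and 4 fell (range 1 to 6), with a median of -0.36. The share called was 38.5%, against 20.2% of all tested genes. MYC rose by 0.81 ± 0.11 (adjusted p = 1.12e-05). The coactivator PPARGC1B changed by -0.66 ± 0.16 (adjusted p = 0.00608), YY1 by -0.48 ± 0.10 (adjusted p = 0.00187) and TFAM, which packages and transcribes mitochondrial DNA, by -0.45 ± 0.11 (adjusted p = 0.00449). The other gene of the list that fell, TFB2M, named after its value was seen, changed by -0.45 ± 0.11.

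Promoter sequences were taken from the RefSeq promoter table (GRCh38.p14), 250 bases before to 50 after each start, in which 30 of the 36 tested carriers had an entry. Those without an entry included SLC25A16, SLC25A30, SLC25A32, SLC25A35 and SLC25A37. The E-box CACGTG, which reads the same on both strands and is bound by MYC and related factors, was in 8 of the 30 (26.7%), against 12.9% of 8918 tested genes with an entry and 7.26% of 35116 promoters. Of these 8, SLC25A51 fell (-0.46) and 7 were not called. Below 0 were SLC25A13 (-0.32), SLC25A22 (-0.24), SLC25A36 (-0.09), SLC25A38 (-0.32) and SLC25A46 (-0.33). Above 0 were SLC25A26 (0.03) and SLC25A33 (0.27). The windows are shown because the E-box was the motif found most often in the carriers. They lie at chr9:37904171-37904196 (minus strand) in SLC25A51, chr7:96322237-96322262 (minus) in SLC25A13, chr11:795420-795445 (minus) in SLC25A22, chr1:9539429-9539454 (plus) in SLC25A33, chr3:140941683-140941708 (plus) in SLC25A36, chr3:39383316-39383341 (plus) in SLC25A38, chr5:110738950-110738975 (plus) in SLC25A46, and chr3:66220941-66220966 and chr3:66220967-66220992 (plus) in SLC25A26. Each is written 5′ to 3′ on the gene's strand with the E-box in capitals.
SLC25A51: gtgtctccctCACGTGaccccaacag
SLC25A13: gcagcggggtCACGTGtccctgtcca
SLC25A22: ggctggggtgCACGTGagccccgagc
SLC25A33: cggcccccgcCACGTGacggccgcgc
SLC25A36: ccgtagggatCACGTGaaagaacact
SLC25A38: agaacaccctCACGTGacaagcgtcc
SLC25A46: aggctataatCACGTGctccgaagac
SLC25A26, first: tctcgcgttgCACGTGcagttgttgt
SLC25A26, second: ggttctacgtCACGTGgtcccggaag

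Beside the E-box, TTCCCGC, an E2F motif, was in 4 of the 30 carrier promoters (13.3%) and in 13.2% of tested genes' promoters (6.55% of all). TGATGNAA, a motif of ATF4 with C/EBP, was in 1 (3.33%), against 2.69% and 3.62%. The palindromic motif of NRF1 was in 0, against 2.74% and 1.24%. Both strands were searched, and a match describes letters in the window only. In the GENCODE annotation of GRCh38, 6 of the 8 called carriers share exon bases with another gene, as do 17 of all 36 tested carriers, and the strand setting of the counting is not given in the sources used here. SLC25A35 overlaps RANGRF, whose own change was 0.03 ± 0.28 (log2, SE; adjusted p = 0.954) and so loosely bounded. SLC25A12 overlaps METAP1D, whose change was 0.05 ± 0.17 (adjusted p = 0.861). Both were looked up after the carriers' values were seen, and genes that overlap the other called carriers were not looked up. The part of such overlap in the carriers' counts was not tested. SLC25A6, which has 2 GENCODE entries, has 6 pseudogenes by symbol, SLC25A51 has 3 and SLC25A24 has 2. Carriers that were not called have them too, with 9 for SLC25A5 and 5 each for SLC25A1 and SLC25A15. Reads of carriers with such copies could be split or lost, and their values are uncertain to that extent.

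The number of carriers called depended on the processing. None of the 8 called carriers was called under every one of 15 alternatives. Against a fold of 1.2, 1 carrier rose and 0 fell (edgeR's glmTreat; at an unadjusted p under 0.05 in that test, 1 was higher and 5 lower, as were 9.13% and 9.07% of all tested genes), while DESeq2 against no fold called 3 as lower. With library totals as scaling, which shifted the median of all genes by -0.07 on the log2 scale, 2 carriers rose and 8 fell. The split over all tested genes then was 831 higher and 1714 lower, against 1130 and 1168 with TMM. Without inhibitor replicate 1, 0 carriers rose and 5 fell, and without DMSO replicate 2, 1 rose and 2 fell. No called carrier changed direction under any alternative.

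**Figure D4:**
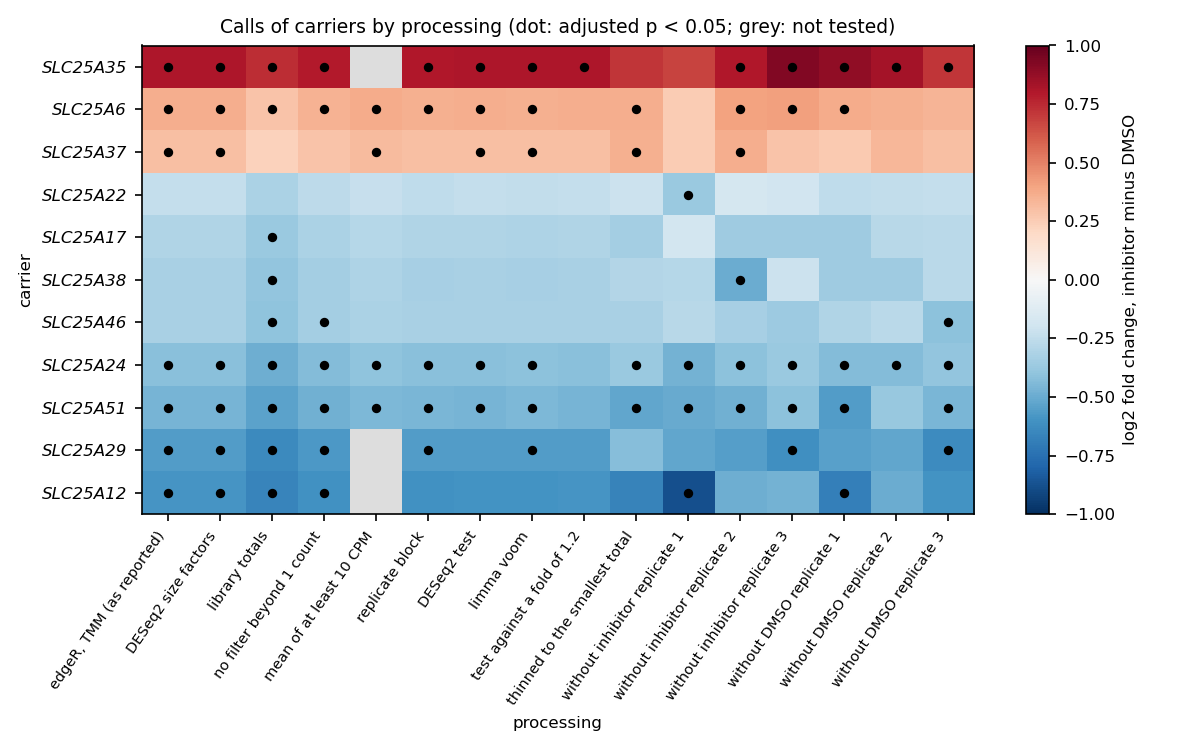
Log2 fold change (colour, inhibitor minus DMSO) of carriers called in the reported analysis or under an alternative (rows), under each processing (columns), with a dot where the adjusted p was under 0.05 and grey where the carrier was not tested. SLC25A24 lacks a dot only against a fold of 1.2, and the uncalled carriers SLC25A17, SLC25A22, SLC25A38 and SLC25A46 have dots only under some alternatives.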

How the data were processed

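RNA of HT-1080 cells was measured in 6 libraries, 3 per group by sample title. An AmpliSeq panel was used, so a count reports 1 amplified part of a transcript. The deposited values are raw read counts per gene symbol, whole numbers made by the authors without normalization. The submitters' processing notes name HTSeq, DESeq2 1.20.0 and hg19, with no roles. Which aligner and annotation were used, and whether counting used strand, is not given in the sources used here. The carriers and the gene lists beside them were chosen with earlier results of these data known. The test was run with edgeR 4.0.16 (R 4.3.3), where filterByExpr by group left 11391 of 20683 genes with 99.924% of the counts, TMM set the scale, and the quasi-likelihood test (glmQLFit, glmQLFTest) compared inhibitor with DMSO, with Benjamini-Hochberg adjustment over all tested genes and calls at an adjusted p under 0.05. CPM are counts per 1000000 of the TMM-scaled total.

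Every SLC25A row was accounted for; called carriers were given by library, apart from items not reported here, which stay in the counts and medians, and of each substrate class without a call the gene with the smallest p was named. Of each further list, up to 4 called genes with the largest change were named. Related carriers were compared by the log2 ratio of CPM plus 0.5 in each library, by exact two-sided permutation. Alternatives were DESeq2 size factors, library totals, 2 other count filters, a replicate block, DESeq2 1.42.0, voom in limma 3.58.1, glmTreat against a fold of 1.2, counts thinned to the smallest total, a pseudocount of 2 for the ratios, and leaving out each library. The scripts were tested on simulated data. Within each group the libraries differed beyond counting noise (chi-square over its degrees of freedom 8.52 to 13.4, genes with at least 20 counts), and each counted as 1 replicate. Without molecular identifiers, PCR copies of 1 molecule count repeatedly, so floors cover counting error only. A planned search of the carrier proteins for their signature was not run, and promoter and gene annotation is of GRCh38, not of the build named in the notes.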

Additional observations from a re-analysis of the deposited data

How the results depend on the processing

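Of the 8 called carriers, none kept its call under all 15 alternatives and none reversed, and 4 more were called under at least 1 alternative. Against a fold of 1.2, 829 of all tested genes were called, 1 carrier rose and 0 fell. The 5 carriers that fell became 8 with library totals, 3 with a mean of at least 10 CPM (SLC25A12, SLC25A29 and SLC25A35 were then not tested), 3 in DESeq2's test and 3 after thinning. Leaving out 1 library gave 1405 (without DMSO replicate 2) to 2246 calls over all tested genes, against 2298, with 0 to 3 carriers that rose (0 without inhibitor replicate 1, 1 without DMSO replicate 2 or 3) and 2 to 5 that fell (2 without DMSO replicate 2, 3 without inhibitor replicate 2 or 3 or DMSO replicate 1). Apart from the fewer libraries and genes these alternatives hold, the cause was not tested. With the replicate block, 2 carriers rose and 4 fell, and 2223 of all tested genes were called. Libraries with the same number did not deviate together (correlations 0.03, -0.02 and 0.01), and 0 libraries correlated best with their own number. This check showed no pairing by number, but 3 libraries a group cannot exclude one. The numbers serve here as names of libraries. For the pair ratios the alternatives gave differences only and no p, and 3 libraries against 3 cannot pass the threshold in any case. Depth limits the 12 untested carriers and those with few counts, such as SLC25A45 and SLC25A14, whose intervals are wide.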
